A study of Mus musculus with 16 samples.

Results

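General macrophage genes were followed through 2 kinds of B cell preparation as a set of 10 genes. They are the complement C1q chains C1qa, C1qb and C1qc, the lipid carrier Apoe, the growth factor receptor Csf1r, the surface receptor Adgre1 (F4/80), the scavenger receptor Msr1, the secreted protein Cd5l, the lysozyme Lyz2 and the signalling adaptor Tyrobp. They were chosen by name, as every probe set that the platform annotation assigns to 1 of these symbols. This gave 17 of the 45101 probe sets of the arrays: 3 each for C1qb and Csf1r, 4 for Msr1 and 1 for each of the other 7 genes. All 17 passed the filter on low values, which kept 35032 probe sets.

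RNA was measured on 16 Affymetrix mouse arrays, 4 biological replicates in each of 4 groups, all from mice aged 5 months. B6_B1a and Sle2c1_B1a are CD5-selected peritoneal B1a cells of the strain C57BL/6 (B6) and of the congenic strain B6.Sle2c1, which carries on a B6 background the lupus susceptibility segment Sle2c1 of the NZM2410 strain. B6_Bs and Sle2c1_Bs are CD43-negative splenic B cells of the same strains. The labels state that peritoneal macrophages were taken out of the B1a cells by a 2 h culture in 10% serum, that T cells were depleted with Thy1.2 and CD3ε antibodies, and that 80% of the product was B220int CD5+, against more than 90% B220hi cells in the spleen product. Macrophage transcripts therefore were not the target of either preparation. In such bulk RNA, fewer cells of a type and less RNA per cell cannot be told apart. The sex of the mice and the day of processing are not given in the sources used here.

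C1q is the recognition part of the classical complement pathway. It is assembled from 3 related chains, each with a collagen-like stem and a globular head, and binds immune complexes and dying cells. Unlike most complement proteins it is made chiefly by macrophages and dendritic cells rather than by the liver. In mice and people, lack of C1q predisposes to lupus. The other genes of the set mark mononuclear phagocytes broadly. Csf1r receives the survival signals Csf1 and Il34, Tyrobp (DAP12) couples receptors such as Trem2 to the kinase Syk, and Lyz2 is also strongly expressed by neutrophils and monocytes.

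Promoter sequences of some of these genes are shown first, as a description. RefSeq promoters (assembly GRCm38.p6, 250 bases before to 50 bases after the start) were matched by symbol for 5 of the 10 genes, with 7 promoters in all. C1qb lies at chr4:136886151-136886450 (minus strand), C1qc at chr4:136892865-136893164 (minus strand), Cd5l at chr3:87357631-87357930 (plus strand) and Lyz2 at chr10:117282223-117282522 (minus strand). Capitals mark GAGGAA, a purine-rich ETS core of the kind that the myeloid factor PU.1 binds, and TGCTGA, a half-site of the element bound by MAF factors, each on either strand (TTCCTC and TCAGCA on the other). No match to 1 motif overlapped a match to the other in these promoters.
C1qb: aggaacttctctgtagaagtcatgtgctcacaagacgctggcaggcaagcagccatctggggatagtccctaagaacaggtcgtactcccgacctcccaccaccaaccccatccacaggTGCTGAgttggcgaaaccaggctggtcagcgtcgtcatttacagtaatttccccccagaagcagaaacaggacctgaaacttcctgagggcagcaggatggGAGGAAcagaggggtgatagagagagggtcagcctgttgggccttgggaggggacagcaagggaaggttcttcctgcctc
C1qc: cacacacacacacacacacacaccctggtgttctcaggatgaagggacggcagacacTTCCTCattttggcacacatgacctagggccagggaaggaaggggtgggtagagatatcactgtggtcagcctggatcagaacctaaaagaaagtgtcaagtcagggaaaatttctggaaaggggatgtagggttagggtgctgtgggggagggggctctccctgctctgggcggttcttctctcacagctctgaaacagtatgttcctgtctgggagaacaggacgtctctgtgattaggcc
Cd5l: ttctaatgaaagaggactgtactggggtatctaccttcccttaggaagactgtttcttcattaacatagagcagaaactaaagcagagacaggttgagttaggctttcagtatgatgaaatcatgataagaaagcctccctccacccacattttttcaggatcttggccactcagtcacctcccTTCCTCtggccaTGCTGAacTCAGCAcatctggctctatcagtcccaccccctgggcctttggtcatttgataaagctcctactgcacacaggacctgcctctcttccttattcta
Lyz2: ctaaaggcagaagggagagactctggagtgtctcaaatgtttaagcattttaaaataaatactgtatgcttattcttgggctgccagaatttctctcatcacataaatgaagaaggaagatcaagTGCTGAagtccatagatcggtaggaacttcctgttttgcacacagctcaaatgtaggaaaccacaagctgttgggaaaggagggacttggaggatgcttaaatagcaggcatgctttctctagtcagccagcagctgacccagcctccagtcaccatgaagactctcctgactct
C1qb held 1 match to each motif, C1qc 1 to GAGGAA, Cd5l 1 to GAGGAA and 2 to TGCTGA, and Lyz2 1 to TGCTGA. Of the 3 Apoe promoters, 2 held GAGGAA (3 matches) and 0 held TGCTGA. Among all 32851 promoters of 300 bases, 28.3% held GAGGAA and 19.5% held TGCTGA, so both motifs are common. A match describes letters and not a bound site. In gene order C1qa, C1qc and C1qb are neighbours on chromosome 4. Cdkn2c, the cell cycle inhibitor that the series is titled for, is on the same chromosome with 403 protein-coding genes between it and C1qb.

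The deposited values are scores that behave like log signals scaled array by array. Their log base is unknown, so that differences are given in score units and not as fold changes. Values below 0.495, which is the 40th percentile of a typical array (median over the 16), were treated as carrying no level and were raised to it (the floor). This floor is a choice and not a measured detection limit. The 40th percentiles of single arrays ran from 0.28 to 0.77, and 22.8% to 35.6% of the probe sets of an array lay at its lowest value. Where a whole group of arrays was at the floor and no array of the other group was, the size of a difference is a lower bound. Where arrays of both groups were at the floor, it has no bound. A group wholly at the floor has an SD of 0, which tends to lower the SE and adjusted p of that probe set. Array medians ranged from 0.68 to 1.12, and 34.2% to 45.3% of the probe sets of an array lay at the floor. The arrays give no count or depth, and precision is limited by how many arrays there are. On the first principal components Sle2c1_B1a 4, B6_Bs 1, B6_Bs 3 and Sle2c1_Bs 3 stood apart from their groups. Without these 4 arrays the counts of probe sets called were 4 and not 6 between strains in B1a, 0 as before in Bs, 1 as before for the difference of the strain effects, 2 and not 6 between cell types in B6, and 2 and not 3 in Sle2c1. The B cell genes Ptprc, Ms4a1, Cd79a and Cd79b were above the floor on all 16 arrays, Pax5 on 6. Cd5, used for the selection, was above the floor on 4 B6_B1a and 2 Sle2c1_B1a arrays and on 0 of the Bs arrays.

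By level the 17 probe sets fell into 3 kinds. Abundant ones, above the floor on all 16 arrays, were those of Lyz2, Adgre1 and Tyrobp. Dim ones, at the floor on all 4 arrays of at least 1 group, were 11 probe sets: all 5 of C1q, those of Apoe and Cd5l, and 2 each of Csf1r and Msr1. The other 3 (1 of Csf1r and 2 of Msr1) were intermediate, with signal on 1 or more arrays of every group but not on all 16.

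The comparison of strains in B1a cells sets the Sle2c1_B1a preparations against those of B6_B1a. Signal of 5 of the 10 genes was lower in Sle2c1_B1a than in B6_B1a: C1qb (2 of 3 probe sets), Apoe, Csf1r (1 of 3), Adgre1 and Lyz2. In all, 6 of the 17 probe sets were lower and 0 were higher (limma, two-sided, Benjamini-Hochberg adjusted p under 0.05 over all probe sets), where 3.51% of all 35032 probe sets passed, 1.64% lower and 1.88% higher. Lower calls made up 46.6% of all calls in this comparison, 56.1% after quantile normalization and 57.5% after median centring. The median difference was -0.71 over the 17 probe sets and 0.015 over all probe sets. At an unadjusted p under 0.05 there were 12 of the 17, against 17.2% of all probe sets. The ranges of the groups did not overlap, with Sle2c1_B1a lower, for 5 of the 17, against 4.28% of all probe sets. The count of 6 was 11 without B6_B1a 2 (2.38% of all probe sets called). It was 4 without B6_B1a 1 (2.48%), without B6_B1a 3 (2.51%) or without Sle2c1_B1a 2 (3.29%). With median centring it was 10 (4.24%). With only the 8 B1a arrays in the fit it was 3 (1.80%), and with no floor it was 3 (1.88%).

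Of the complement chains, only C1qb passed. Its probe set 1437726_x_at read 2.30, 1.22, 2.29 and 2.85 units on B6_B1a 1 to 4, with every Sle2c1_B1a array at the floor, so that the means differed by -1.67 (SE 0.249, adjusted p = 0.00137). Every B6_B1a array was thus above every Sle2c1_B1a array, and the size is a lower bound. Left out of the spread, floored groups gave an adjusted p of 0.048, and only the 8 B1a arrays gave 0.0466. The second probe set, 1434366_x_at, read 2.18, 1.38, 2.21 and 2.80 in B6_B1a and only 0.65 on Sle2c1_B1a 2, the other Sle2c1_B1a arrays being at the floor (-1.61, SE 0.248, adjusted p = 0.00173). The suffix of both probe sets marks probes that may also bind other sequences. The third, 1417063_at, had signal on 3 of 4 B6_B1a arrays (1.33, 1.31 and 1.92) and on 1 of 4 Sle2c1_B1a arrays (0.74) and did not pass (-0.71, adjusted p = 0.0956). In all 3 probe sets B6_B1a 2 was the lowest array of its group and B6_B1a 4 the highest. Both calls of C1qb held without any 1 of the 16 arrays; with no floor 1434366_x_at did not pass (adjusted p = 0.0794) and 1437726_x_at did (adjusted p = 0.02).

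The other C1q chains did not pass. C1qc read 1.42, 1.24 and 2.05 on B6_B1a 1, 3 and 4, was at the floor on B6_B1a 2 and throughout Sle2c1_B1a, and differed by -0.81 (with no bound on the size, SE 0.219, adjusted p = 0.0599). C1qa read 0.83, 1.13 and 1.25 on the same 3 B6_B1a arrays and 0.52 on Sle2c1_B1a 3 as the highest Sle2c1_B1a value (-0.42, SE 0.13, adjusted p = 0.0948). For both, B6_B1a 2 was the array that overlapped with the Sle2c1_B1a group. Without this array both were lower (adjusted p = 0.00117 for C1qc and 0.00711 for C1qa).

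Among the secreted proteins, Apoe, which carries cholesterol out of macrophages, had the smallest adjusted p of the set. It read 1.75, 1.50, 1.64 and 1.92 units in B6_B1a (1.70 ± 0.177, SD, n = 4), and all Sle2c1_B1a arrays were at the floor. The difference was -1.21, its size being a lower bound (SE 0.0887, adjusted p = 2.95e-06). No array of the groups overlapped, and B6_B1a 2 was again the lowest of its group. With no floor the call ended (adjusted p = 0.327). It held with floored groups left out of the spread (0.000163) and with only the 8 B1a arrays (0.000957), at larger adjusted p. Cd5l, a macrophage protein that circulates bound to IgM, read 1.14, 1.63 and 2.15 on B6_B1a 1, 3 and 4 and was at the floor on B6_B1a 2 and in the whole Sle2c1_B1a group (-0.86, SE 0.24, adjusted p = 0.0673). Without B6_B1a 2 it passed (adjusted p = 0.00206).

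**Figure D1:**
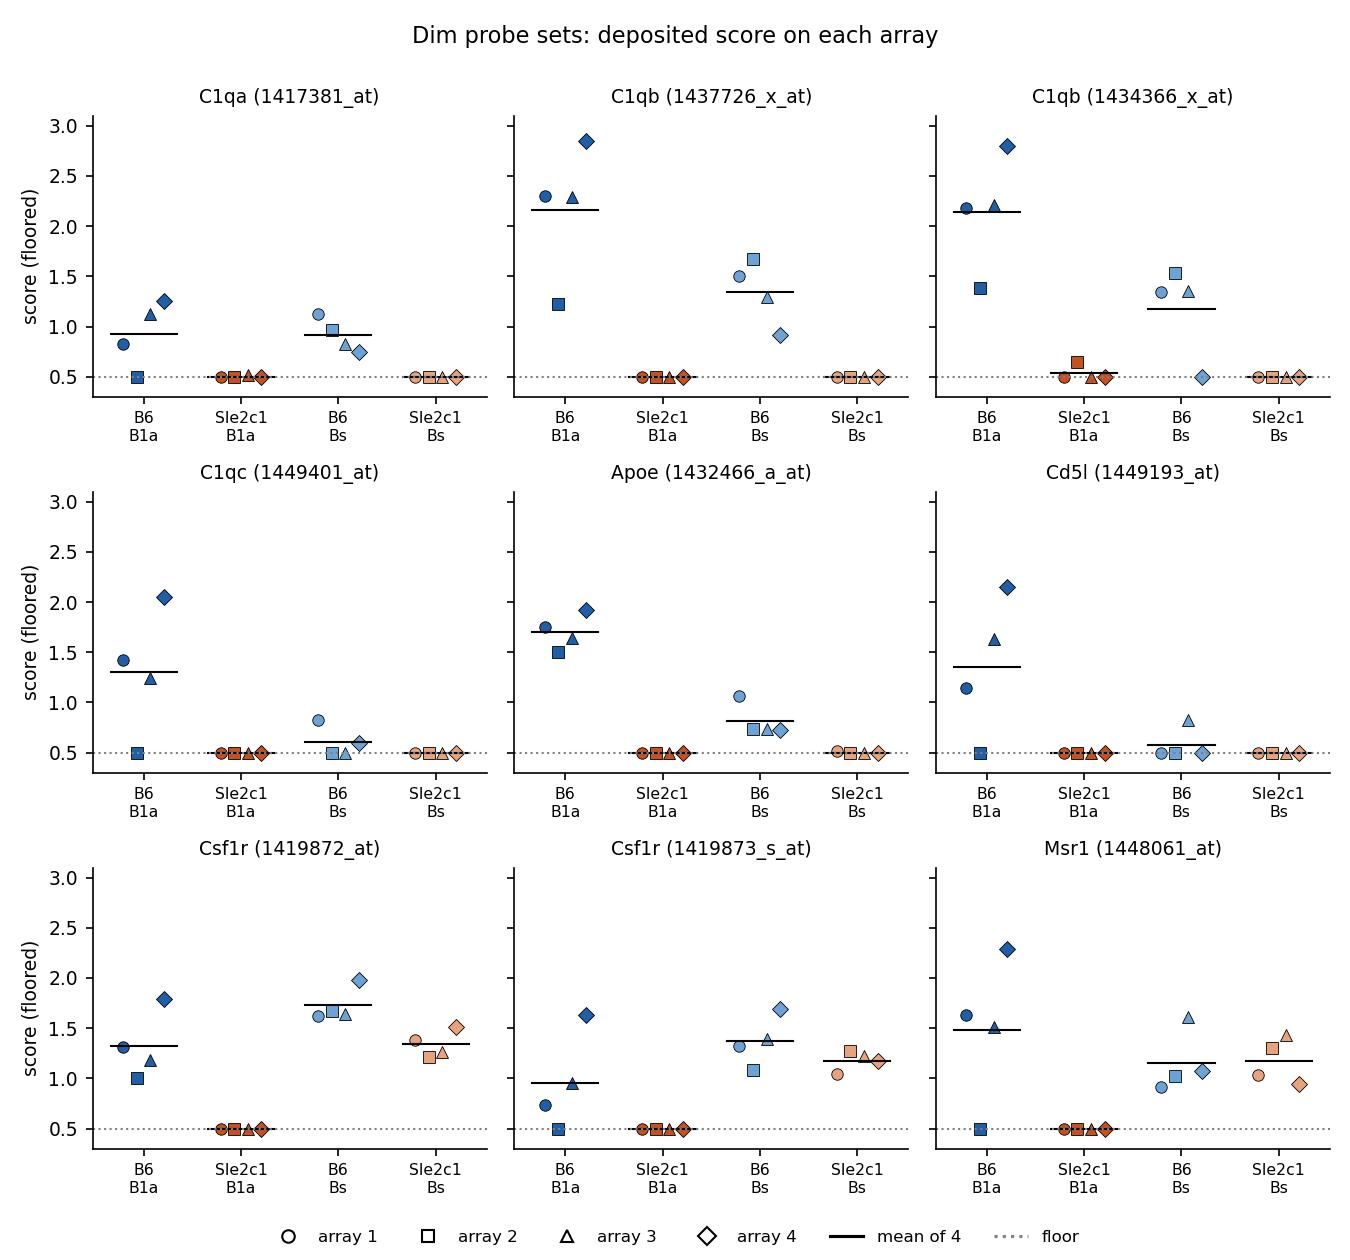
Deposited score (floored at 0.495, dotted line) on each of the 16 arrays for 9 of the dim probe sets, by group; symbols mark the array numbers and bars the group means of 4. The Sle2c1_B1a points lie at or near the floor in every panel, and B6_B1a 4 (2.85 for C1qb 1437726_x_at) lies above B6_B1a 2 (1.22) in every panel.

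Csf1r, the receptor tyrosine kinase that macrophages need to survive, had 1 of 3 probe sets that passed. Its probe set 1419872_at read 1.31, 1.00, 1.18 and 1.79 in B6_B1a, against the floor on each Sle2c1_B1a array (-0.82, the size again a lower bound, SE 0.137, adjusted p = 0.00302). The ranges did not overlap. With a floor at 1 unit the call ended (adjusted p = 0.29), as it did with only the 8 B1a arrays (adjusted p = 0.0515). The second Csf1r probe set, 1419873_s_at, read 0.73, 0.95 and 1.63 on B6_B1a 1, 3 and 4 and was at the floor in Sle2c1_B1a, without passing (-0.46, adjusted p = 0.223). The third, 1423593_a_at, showed low signal in every group (means 0.65 in both B1a groups, 0.67 in B6_Bs and 0.71 in Sle2c1_Bs). Its strain difference in B1a had a 95% confidence interval from -0.35 to 0.35.

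Msr1, the class A scavenger receptor of modified lipoproteins, had 0 of 4 probe sets that passed (limma; 1 at an unadjusted p under 0.05). 1448061_at read 1.63, 1.51 and 2.29 on B6_B1a 1, 3 and 4, whereas B6_B1a 2 and each Sle2c1_B1a array were at the floor (-0.99, SE 0.276, adjusted p = 0.0675). Without B6_B1a 2 it was lower (adjusted p = 0.00206). The other 3 probe sets of Msr1 had signal on 1 to 3 B6_B1a arrays and 1 to 2 Sle2c1_B1a arrays and differed by -0.29 to -0.04 (adjusted p 0.519 to 0.801). Of these, 1425434_a_at read 1.14 and 1.46 on B6_B1a 1 and 4, 0.83 and 1.11 on Sle2c1_B1a 2 and 3, and 0.66 to 1.81 on the 8 Bs arrays. Adgre1, the F4/80 antigen, stayed well above the floor everywhere. It read 2.49, 2.13, 2.35 and 2.84 in B6_B1a and 1.90, 1.81, 2.03 and 2.14 in Sle2c1_B1a (-0.48, SE 0.125, adjusted p = 0.0494), and the ranges overlapped by 1 array on each side, 2.13 against 2.14. In level order it stood highest in B6_B1a (2.45 ± 0.298), then in B6_Bs (2.08 ± 0.0645), Sle2c1_B1a (1.97 ± 0.145) and Sle2c1_Bs (1.80 ± 0.132), and each group overlapped in range with its neighbour in this order. The strain call in B1a was at the edge of the threshold: it held without B6_B1a 2 and without Sle2c1_B1a 4 and ended without any 1 of the other 14 arrays (adjusted p 0.0539 to 0.118). It also ended under 8 of the 12 other alternatives run.

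Lyz2, which degrades bacterial cell walls in phagocytes, was lower by a narrow margin. It read 2.97, 2.13, 2.95 and 3.47 units in B6_B1a (2.88 ± 0.555) and 1.93, 1.97, 2.12 and 2.05 in Sle2c1_B1a (2.02 ± 0.0846), and the means differed by -0.86 (SE 0.193, adjusted p = 0.023). The groups did not overlap, although B6_B1a 2 (2.13) lay next to Sle2c1_B1a 3 (2.12). The call ended without B6_B1a 1 (adjusted p = 0.0669), without B6_B1a 3 (0.0641) and without Sle2c1_B1a 2 (0.0514), with only the 8 B1a arrays (0.204), with no floor (0.0529) and without the 4 arrays that stood apart (0.0874). The neighbouring paralog Lyz1 is nearly identical, and the Lyz1 probe sets 1436996_x_at and 1439426_x_at followed the same course (-0.74, adjusted p = 0.0247, and -0.76, adjusted p = 0.0206). The Lyz1 probe set 1450822_at fell by 0.54 (adjusted p = 0.00878). Between the cell types in B6 it took another course. It was higher in B6_B1a than in B6_Bs (0.55, adjusted p = 0.00184), whereas 1436996_x_at (-0.37), 1439426_x_at (-0.39) and Lyz2 (-0.36) leaned lower without passing. Signal of Lyz1 and Lyz2 cannot be told apart with certainty on these probe sets.

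Tyrobp, the adaptor with an intracellular ITAM motif, passed in 0 of the 5 comparisons (limma; also 0 at an unadjusted p under 0.05). It read 2.80, 2.87, 3.02 and 3.04 in B6_B1a and 2.81, 2.96, 2.93 and 2.97 in Sle2c1_B1a. The difference of -0.02 (SE 0.0819, adjusted p = 0.949) had a 95% confidence interval from -0.19 to 0.16. Its group means of 2.93, 2.92, 2.82 and 2.76 (B6_B1a, Sle2c1_B1a, B6_Bs, Sle2c1_Bs) had SDs of 0.0737 to 0.124, and the ranges of all 4 groups overlapped. The cell types differed by 0.11 in B6 (adjusted p = 0.38) and by 0.16 in Sle2c1 (adjusted p = 0.184). Tyrobp is also expressed by NK cells and neutrophils. Over B1a arrays NK cell genes averaged 0.656 to 0.745 units in B6_B1a and 0.66 to 1.02 in Sle2c1_B1a, and neutrophil genes 1.25 to 1.64 and 1.48 to 1.64. Their part in the Tyrobp signal was not tested.

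**Figure D2:**
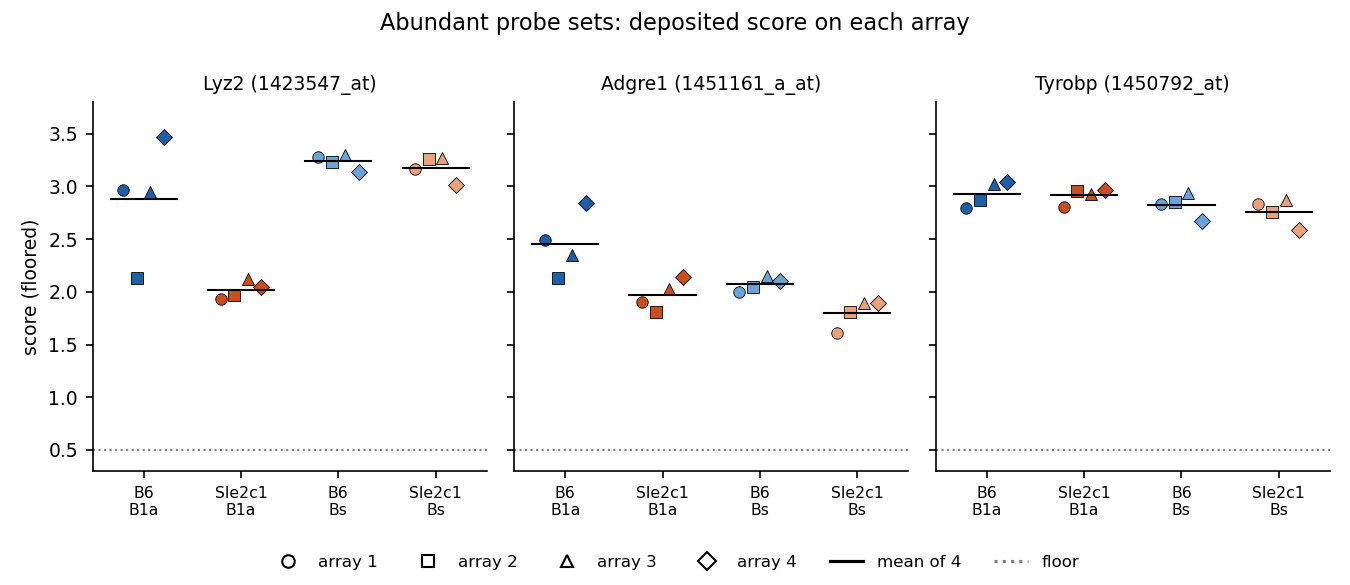
Deposited score on each of the 16 arrays for the 3 abundant probe sets, by group, with the group means of 4 as bars and the floor of 0.495 dotted. By group mean, Lyz2 is lowest in Sle2c1_B1a (arrays 1.93 to 2.12) and highest in the Bs groups, and Adgre1 is highest in B6_B1a. The highest single Lyz2 point is B6_B1a 4 (3.47). The Tyrobp points lie between 2.59 and 3.04 in all groups.

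Within B6_B1a the same array was highest for nearly every probe set of the set and another was lowest for most, while the order of the remaining arrays varied. B6_B1a 4 was the highest array for 16 of the 17 probe sets, and B6_B1a 2 was the lowest or tied at the floor for 14. The mean over the 10 genes was 1.86, 1.28, 1.89 and 2.37 units on B6_B1a 1 to 4, and 1.01 to 1.06 on the Sle2c1_B1a arrays. Genes of large peritoneal macrophages, the resident type with Timd4 and Prg4, ran in parallel at 2.01, 1.37, 2.03 and 2.54 on B6_B1a 1 to 4, against 0.827 to 1.08 on the Sle2c1_B1a arrays. Of these genes, Timd4 read 2.43, 1.54, 2.16 and 2.85 in B6_B1a and was at the floor throughout Sle2c1_B1a, where Prg4 was above the floor on 2 of 4 arrays. Timd4 signal was not confined to the peritoneal preparations. In the spleen it was above the floor on 3 of 4 B6_Bs arrays and on 4 of 4 Sle2c1_Bs arrays (1.13, 1.33, 1.58 and 0.92). The B cell genes lay at 2.56 to 2.65 in B6_B1a and 2.40 to 2.60 in Sle2c1_B1a. The part of large peritoneal macrophages in the differences of the 10 genes was not tested.

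**Figure D3:**
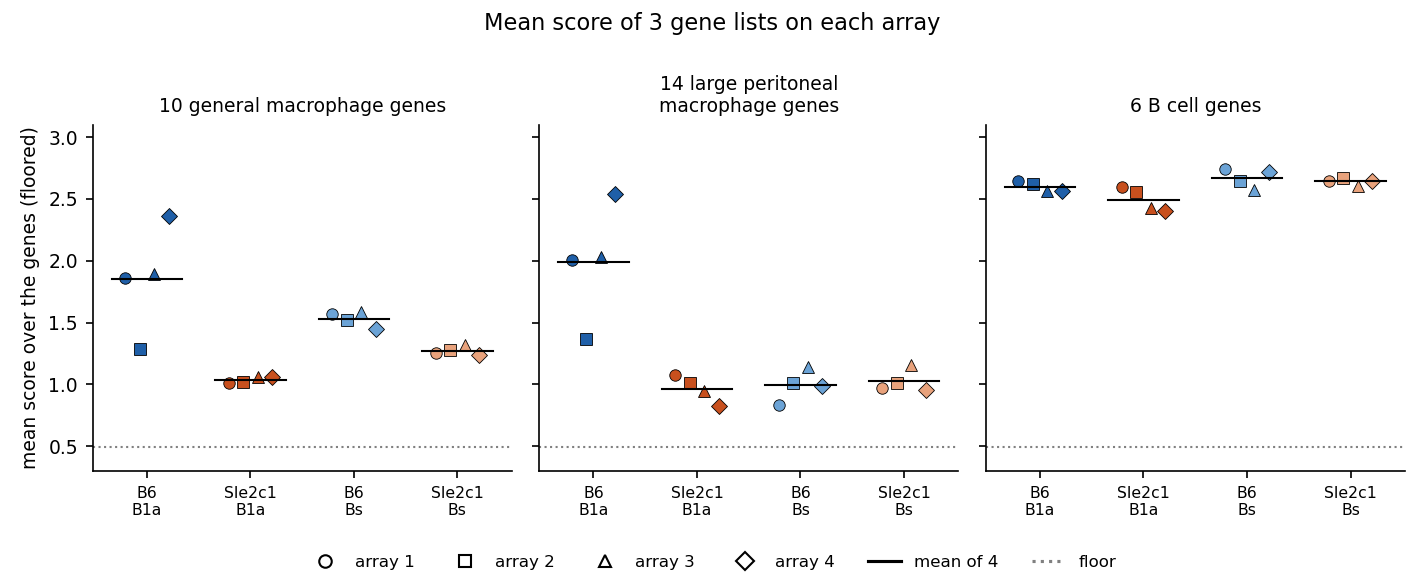
Mean floored score of 3 gene lists (1 probe set per gene) on each of the 16 arrays, by group, with bars for the group means of 4. The 10 general macrophage genes and the 14 large peritoneal macrophage genes both put B6_B1a 2 (1.28 and 1.37) lowest and B6_B1a 4 (2.37 and 2.54) highest in their group, whereas the 6 B cell genes lie between 2.40 and 2.74 on all arrays.

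In splenic B cells 0 of the 17 probe sets passed between the strains (limma), where 0.131% of all probe sets did (0.0228% lower and 0.108% higher). At an unadjusted p under 0.05 there were 6 of 17, all lower in Sle2c1_Bs, against 3.45% of all probe sets. The ranges did not overlap for 5 of the 17, again all lower in Sle2c1_Bs, against 1.10% of all probe sets. These were C1qa, C1qb 1437726_x_at, Apoe, Csf1r 1419872_at and Adgre1. The median difference over the 17 was -0.11, and 0.01 over all probe sets. Lower calls were 17.4% of all calls here and 27.8% after quantile normalization.

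C1q signal was present on some or all B6_Bs arrays, depending on the probe set, and at the floor in Sle2c1_Bs, and no C1q probe set passed. C1qb 1437726_x_at read 1.50, 1.67, 1.29 and 0.92 in B6_Bs and the floor on each Sle2c1_Bs array (-0.85, its size being a lower bound, SE 0.249, adjusted p = 0.663). C1qa read 1.13, 0.97, 0.83 and 0.75 in B6_Bs against the floor on all 4 (-0.42, adjusted p = 0.728). The second C1qb probe set, 1434366_x_at, read 1.34, 1.53 and 1.35 on B6_Bs 1 to 3 and the floor on B6_Bs 4 (-0.68, adjusted p = 1). Signal of C1qc reached 0.83 and 0.60 on 2 of 4 B6_Bs arrays, the others being at the floor (-0.11). The third C1qb probe set, 1417063_at, likewise read 0.64 and 1.04 on 2 of 4 B6_Bs arrays (-0.17). All 5 C1q probe sets lay at the floor on every Sle2c1_Bs array. Apoe was at 1.06, 0.74, 0.74 and 0.73 in B6_Bs and above the floor, at 0.52, on Sle2c1_Bs 1 alone (-0.32, adjusted p = 0.575). Cd5l was above the floor on 1 of the 8 Bs arrays, B6_Bs 3, at 0.83.

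Among the receptors, Csf1r 1419872_at read 1.62, 1.67, 1.64 and 1.98 in B6_Bs and 1.38, 1.21, 1.26 and 1.51 in Sle2c1_Bs without overlap (-0.39, adjusted p = 1). Its probe set 1419873_s_at read 1.32, 1.08, 1.39 and 1.69 in B6_Bs and 1.04, 1.27, 1.22 and 1.17 in Sle2c1_Bs, with overlap (-0.20, adjusted p = 1). Adgre1 read 2.00 to 2.15 in B6_Bs and 1.61 to 1.89 in Sle2c1_Bs (-0.28, adjusted p = 1). Lyz2 (-0.06, 95% confidence interval -0.47 to 0.35), Tyrobp (-0.06, -0.24 to 0.12) and Msr1 1448061_at (0.02, -0.57 to 0.61) had intervals that span 0. In order of group means Lyz2 ran from B6_Bs (3.24 ± 0.0714) and Sle2c1_Bs (3.18 ± 0.12), whose ranges overlapped, through B6_B1a to Sle2c1_B1a. The B6_B1a arrays (2.13 to 3.47) spanned the ranges of both Bs groups. Neutrophils also make lysozyme, and their 8 genes averaged 1.43 to 1.83 units in B6_Bs and 1.20 to 1.70 in Sle2c1_Bs. Genes of splenic red pulp macrophages averaged 1.36 to 1.64 units over the B6_Bs arrays and 1.08 to 1.43 over the Sle2c1_Bs arrays. Of their 8 genes tested, 0 passed (limma), with a median difference of -0.22. At an unadjusted p under 0.05 there were 4 of the 8, against 3.45% of all probe sets. Spic, a factor of these macrophages, read 1.24 to 1.54 in B6_Bs and 1.33 to 1.63 in Sle2c1_Bs. Between the strains in Bs, Hmox1 differed by -0.61 and Cd68 by -0.335, against 0.13 for Siglec1 and 0.02 for Spic. Their part in the C1q signal was not tested.

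**Figure D4:**
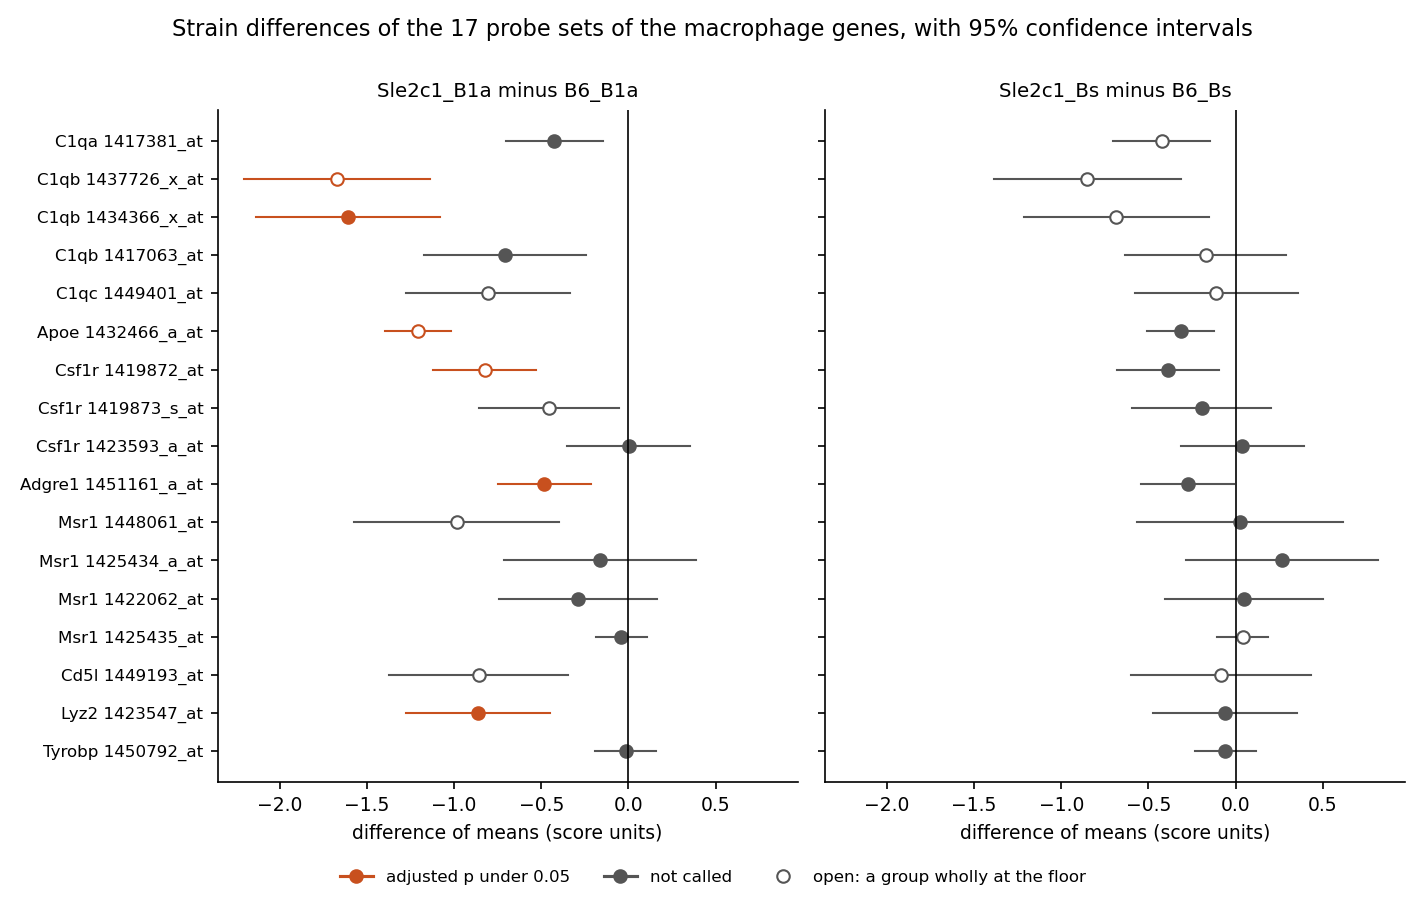
Difference of group means (Sle2c1 minus B6, score units, 95% confidence intervals of the limma fit) for the 17 probe sets, in B1a cells on the left and in Bs cells on the right; open points have a group wholly at the floor, and their size is a lower bound only where no array of the other group was at the floor. In B1a cells 6 probe sets passed, led by C1qb at -1.67, and in Bs cells 0 passed, with C1qb at -0.85.

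The difference of the strain effects (B1a minus Bs) passed for Apoe alone among the 17, where 0.462% of all probe sets passed (0.203% lower and 0.260% higher). Apoe differed by -1.21 in B1a and by -0.32 in Bs, a difference of -0.89 (SE 0.125, adjusted p = 0.0053). Sle2c1_B1a was at the floor on every array, and Sle2c1_Bs was above it, at 0.52, on Sle2c1_Bs 1 alone. Both strain effects are thus limited by the floor. The value nearly repeats, with its sign changed, the B6 cell type difference of 0.885 (1.70 against 0.818). It cannot tell whether the strain effects differ. The call ended with median centring (adjusted p = 0.0523), with limma's trend and robust options (0.146) and with floored groups left out of the spread (0.0585). With no floor the sign turned (0.14, adjusted p = 1). Without any 1 of the 16 arrays the call held. For C1qb 1437726_x_at the difference was -0.82 (adjusted p = 0.604) and for Lyz2 -0.80 (adjusted p = 0.399). Without B6_B1a 2 both passed (adjusted p = 0.0445 and 0.00925). For C1qb 1437726_x_at all Sle2c1 arrays were at the floor, as they were for C1qa save Sle2c1_B1a 3. The limit given for Apoe therefore holds for C1qb and C1qa too. C1qa differed by -0.42 in each cell type (difference 0.00, adjusted p = 1).

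The comparison of cell types in B6, which shares the B6_B1a arrays with the strain comparison, found 5 of the 10 genes higher in the peritoneal preparation: C1qb, C1qc, Apoe, Cd5l and Adgre1. Of the 17 probe sets 6 were higher in B6_B1a than in B6_Bs and 0 were lower, against 19.9% called among all probe sets (9.21% higher and 10.7% lower). The ranges did not overlap for 1 of the 17, higher in B6_B1a, against 11.2% of all probe sets. Apoe was higher by 0.88 (SE 0.0887, adjusted p = 5.81e-06) with no overlap of ranges. C1qb was higher in 2 probe sets (1434366_x_at by 0.96, adjusted p = 0.0141; 1437726_x_at by 0.82, adjusted p = 0.0327). C1qc (0.70, adjusted p = 0.0376), Cd5l (0.78, adjusted p = 0.0354) and Adgre1 (0.38, adjusted p = 0.0472) were higher with overlapping ranges. C1qa read 0.926 ± 0.337 and 0.92 ± 0.167 units (0.01, adjusted p = 0.99). Lyz2 differed by -0.36 (adjusted p = 0.215) and Csf1r 1419872_at by -0.41 (adjusted p = 0.0502), and neither passed. Without B6_B1a 4 both were lower in B6_B1a (adjusted p = 0.0328 and 0.0021), as was Csf1r 1419873_s_at (adjusted p = 0.00382), and the probe sets called higher numbered 2 and not 6. The count of 6 was 3 without B6_B1a 1 (15.6% of all probe sets called) or without B6_Bs 2 (13.6%). It was 2 without B6_B1a 3 (14.3%) or without B6_Bs 4 (15.3%), and 0 with no floor (15.1%). With the replicate block it was 8 (26.1%). C1qb 1417063_at was then higher (adjusted p = 0.0419) and Csf1r 1419872_at lower (adjusted p = 0.0374) in addition. Apoe and C1qb 1434366_x_at held without any 1 of the 16 arrays. The calls of C1qb 1437726_x_at (adjusted p 0.0718 to 0.0964), Cd5l (0.0562 to 0.0991), C1qc (0.0502 to 0.093) and Adgre1 (0.0542 to 0.121) ended without 5, 5, 7 and 12 of the 16 arrays, B6_B1a 3, B6_B1a 4 and B6_Bs 4 among them for each.

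In the Sle2c1 strain Csf1r and Lyz2 passed between the cell types. Csf1r was lower in Sle2c1_B1a than in Sle2c1_Bs in 2 probe sets (1419872_at with -0.84, adjusted p = 0.000415, and 1419873_s_at with -0.68, adjusted p = 0.016, both sizes lower bounds). Lyz2 fell by 1.16, from 3.18 ± 0.12 units in Sle2c1_Bs to 2.02 ± 0.0846 (SE 0.193, adjusted p = 0.000503). These 3 of 17 were lower and 0 were higher, against 24.8% called among all probe sets (13.7% lower and 11.1% higher). The count is near these shares and says nothing about the set. With Msr1 1448061_at, the ranges of 4 of the 17 did not overlap, lower in Sle2c1_B1a, against 14.4% of all probe sets. Without B6_B1a 4 the count was 5 (23.8% of all probe sets called), with Msr1 1448061_at and 1425434_a_at added. With a floor at 1 unit both Csf1r calls ended (adjusted p = 0.0953 and 0.401). For C1qb 1437726_x_at, C1qc and Cd5l all 8 Sle2c1 arrays were at the floor. Msr1 1448061_at lay at the floor in Sle2c1_B1a and at 1.03, 1.30, 1.43 and 0.94 in Sle2c1_Bs (-0.68, adjusted p = 0.0871). Csf1r 1419872_at and Lyz2 also leaned lower in B6_B1a than in B6_Bs (-0.41 and -0.36). The difference of the strain effects, which equals that of the cell type effects, passed for neither in the main fit (limma, adjusted p = 0.618 and 0.399).

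Other genes of the same pathways were counted in B1a cells with 1 probe set per gene. Among all probe sets in this comparison 1.64% passed lower, 1.88% passed higher and 17.2% had an unadjusted p under 0.05. Unadjusted counts near that share say nothing about a list. Of 12 complement genes beyond C1q, 0 passed between the strains (limma), with a median difference of -0.07. At an unadjusted p under 0.05 there were 3. The regulator Cd46 differed by 0.36 (adjusted p = 0.232) and factor B (Cfb) by -0.56 (adjusted p = 0.238). Of 16 receptors and bridging proteins for dying cells and lipoproteins, 2 were lower and 0 higher, Timd4 (-1.75, adjusted p = 0.00119) and the Mertk ligand Gas6 (-1.03, adjusted p = 0.0497). Olr1 (-1.07, adjusted p = 0.112) and Cd93 (-0.61, adjusted p = 0.167) did not pass. Of 13 Csf1r ligands and myeloid transcription factors 0 passed, with Maf at -0.47 (adjusted p = 0.0723) and the ligand Il34 at -0.46 (adjusted p = 0.188). At an unadjusted p under 0.05 there were 4 of these. Of 14 Tyrobp partners and Fc receptors 0 passed (2 at an unadjusted p under 0.05), with the Fc receptor Fcgr4 at 0.46 (adjusted p = 0.123). Of 14 lysosome genes 1 was lower, Lyz1, while cathepsin D (Ctsd) differed by -0.61 (adjusted p = 0.0672). The medians of these lists lay between -0.12 and 0.06.

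Markers of other cells were read beside these results. For the strain comparison in B1a the shares among all probe sets were again 1.64% lower, 1.88% higher and 17.2% at an unadjusted p under 0.05. Of 14 genes of large peritoneal macrophages 9 were lower in Sle2c1_B1a and 0 higher, with a median of -1.21. They included Ednrb (-1.70, adjusted p = 0.00148), Prg4 (-1.54, adjusted p = 0.00311) and Pf4 (-1.34, adjusted p = 0.00412). Of 6 T cell genes 1 was lower (Cd3g, -0.87, adjusted p = 0.0139), with 5 at an unadjusted p under 0.05 and a median of -0.43. Cd3e (-0.80, adjusted p = 0.172), Cd3d (-0.62, adjusted p = 0.0729) and Cd28 (0.58, adjusted p = 0.12) did not pass. Of 5 eosinophil genes 1 was lower (Epx) and 1 higher (Ccr3). Among 8 mast cell, 8 neutrophil, 6 dendritic cell, 5 NK cell, 8 red pulp macrophage and 6 B cell genes 0 passed (limma), with 1, 0, 0, 0, 1 and 2 at an unadjusted p under 0.05. Mast cell genes averaged 1.48 to 1.86 units in B6_B1a and 1.11 to 1.56 in Sle2c1_B1a. Between the cell types, 9 of the 14 large peritoneal macrophage genes were higher in B6_B1a than in B6_Bs and 0 lower, against 9.21% higher and 10.7% lower among all probe sets. In Sle2c1 3 of the 14 were higher and 2 lower, against 11.1% and 13.7%. The part of these cells in the differences of the 10 genes was not tested.

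The 5 genes outside the set that ran most like the mean of C1qa, C1qb and C1qc over the 16 arrays were Fcna, a ficolin of the lectin complement pathway (Pearson r = 0.937), the ketone body enzyme Bdh1 (0.925), platelet factor 4 (Pf4, 0.910), the protease inhibitor Slpi (0.909) and the retinal reductase Dhrs3 (0.909). All 16 arrays share 4 groups, so that these values describe group levels as much as array-to-array variation. In the set itself, Apoe (0.901), Cd5l (0.892) and Adgre1 (0.880) ran close to the C1q mean, and Csf1r 1419872_at (0.481), Lyz2 (0.455) and Tyrobp (0.402) less closely. Fcna averaged 1.14 in B6_B1a, 0.625 in B6_Bs and 0.495, the floor, in both Sle2c1 groups, with a strain difference in B1a of -0.64 (adjusted p = 0.0959).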

How the data were processed

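The authors deposited a table of 45101 probe sets (64 array controls) on 16 arrays whose unit is a score. Per the labels' protocols, total RNA was amplified and biotin-labelled with NuGEN Ovation. The software, log base and scaling of the values are not given in the sources used here. Log-scale values with a floor had been assumed, and the floor of 0.495 applied here is the median of the 16 arrays' 40th percentiles.

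Probe sets that exceeded the 40th percentile of the array on 4 or more arrays were fitted with 1 mean per group over all 16 arrays (limma 3.58.1, statmod 1.5.0, R 4.3.3), with two-sided moderated tests and Benjamini-Hochberg adjustment over 35032 probe sets. The fit was over probe sets, since every probe set of the genes is described. Other lists used the probe set with the highest mean per gene. Symbols came from the platform annotation (34958 probe sets with 1 gene, 932 with several, 9211 with none), updated by Entrez identifier through a RefSeq table of GRCm38.p6. The script was tested on simulated data.

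The genes and lists were chosen with earlier results of these data known. All 10 genes are named, and of each other list up to 4 genes with the smallest adjusted p in the B1a strain comparison. The genes most like C1q are the 5 with the highest Pearson r over the 16 arrays. No 2 arrays held identical values. Same-numbered Bs arrays of the 2 strains deviated together (correlations 0.106 to 0.596, although Bs 1 and Bs 2 correlated slightly more with another number, 0.394 and 0.124), and same-numbered B1a arrays did not (-0.00362 to 0.146), so that the numbers were taken to pair the Bs arrays, from the data alone. The main fit did not use this pairing, so that the Bs results above are unpaired. It entered only through the replicate block, which also paired the same-numbered B1a arrays, although these did not deviate together. Alternatives were other floors, filters, scalings, forms of the test, gene summaries, a replicate block and leaving out arrays.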

Additional observations from a re-analysis of the deposited data

Results flagged for a closer look

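Apoe read 1.06 units on B6_Bs 1, against 0.73 to 0.74 on the other 3 B6_Bs arrays, which sets this array far from its group. Csf1r 1419872_at read 1.98 units on B6_Bs 4, against 1.62 to 1.67 on the others. These were 2 of 37 groups of 4 arrays tested in this way (groups with at least 3 arrays above the floor), where chance flags about 1 in 20. The strain difference of Apoe was larger in size in B1a than in Bs cells by 0.89 units (-0.89, adjusted p = 0.0053 in limma). This difference turned sign with no floor. Both Sle2c1 groups lay at or next to the floor, so the value cannot tell whether the strain effects differ.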

How the results depend on the processing

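Of the 16 calls of single probe sets in the 5 comparisons, 2 held under every alternative run (C1qb 1437726_x_at between strains in B1a and Lyz2 between cell types in Sle2c1), 10 held without each array in turn, 10 when groups at the floor did not count towards the spread, 7 of the 15 that could be tested with only the 8 arrays compared, and 5 with no floor. With same-numbered arrays of a cell type as a replicate block, all 16 held. The number of probe sets called between strains in B1a, 6, was 10 after median centring, 3 with no floor and 3 with only the 8 arrays compared, and 4 to 11 without single arrays. With the replicate block it was 6. The number higher or lower between cell types in B6, 6, was 0 with no floor, 1 with only the 8 arrays, 2 when floored groups did not count towards the spread, 2 without the 4 arrays that stand apart (Sle2c1_B1a 4, B6_Bs 1, B6_Bs 3 and Sle2c1_Bs 3), 8 with the replicate block, and 2 to 8 without single arrays. The share of all probe sets called between cell types in B6, 19.9%, was 15.1% with no floor, 16.3% with only the 8 arrays and 26.1% with the block. It was 17.6% when floored groups did not count towards the spread. Between cell types in Sle2c1, 3 became 1 with a floor at 1 unit and 3 to 5 without single arrays. The 1 call of the difference between strain effects became 0 when floored groups did not count towards the spread, with median centring and with trend and robust, and 1 to 3 without single arrays. It was also 0 with the stricter filter (at least 8 arrays), which left Apoe untested. Its sign turned with no floor (0.14). In Bs cells 0 were called between strains under every alternative run, the replicate block and the block in the 8 Bs arrays alone (chosen after seeing the data) included; there the block left 1 of all probe sets called, against 46. All probe sets called between strains numbered 1231 in B1a, 657 with no floor, 805 with a floor at 1 unit, 733 when floored groups did not count towards it, and 630 with only the 8 arrays; in Bs 46, 14 after median centring and 18 after quantile normalization; and for the difference of the strain effects 162, 19 with trend and robust and 41 with the stricter filter. Except where stated, the cause of these changes was not tested. Signal near the floor limits the C1q, Apoe, Cd5l and Msr1 values, and no level was read below it.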
